A study of Mus musculus with 9 samples.

Results

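The Notch receptors, their ligand Jag1 and the enzymes that cleave them were followed in the RNA-seq data of mouse bone marrow-derived macrophages (BMDMs). The 9 genes were Notch1, Notch2, Jag1, Rbpj, Adam10, Adam17, Psenen, Ncstn and Aph1a, chosen by name from the 55655 rows of the expression tables through their Ensembl identifiers, and each matched a single row. There were 3 libraries in each of 3 groups. All cells came from the femur and tibia of wild type C57BL/6 mice aged 6 to 8 weeks and were cultured for 7 days in medium holding M-CSF at 10 ng/mL, under which marrow cells mature into unstimulated M0 macrophages. The M0 group received neither stimulus nor light. The M1 group was polarized for 12 hours with LPS, a bacterial cell wall component, plus IFN-γ, a lymphocyte cytokine, a combination that gives inflammatory macrophages. The M1+PBM group received the same LPS plus IFN-γ together with photobiomodulation (PBM), irradiation with a near-infrared laser. The study describes independent repeats of the experiment, but the labels do not tie the libraries of a group to separate mice or cultures, so the p-values measure the spread between these libraries, which may be technical.

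Notch receptors sit in the cell membrane and are switched on by ligands of the Jagged and Delta families on a neighbouring cell. Ligand binding lets a metalloprotease, chiefly ADAM10 and in some settings ADAM17, cut the receptor outside the membrane, and γ-secretase then cuts it within the membrane. γ-Secretase is a complex of a presenilin, nicastrin (Ncstn), an Aph1 protein and Pen-2 (Psenen). The freed intracellular domain moves to the nucleus, joins the DNA-binding protein RBPJ and a Mastermind coactivator, and activates genes of the Hes and Hey families. Macrophages are known to use this pathway during inflammatory activation.

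Expression was measured as FPKM, fragments per transcript length and sequencing depth, so levels of different genes can be set beside each other per length. The depth estimated from the steps of low FPKM values was 30640000 to 42080000 fragments per library. This estimate is rough, because only 22.9% to 24.9% of low values fell within 0.05 of a whole step (10% if even). All 8 macrophage markers checked reached 1 FPKM, Adgre1 among them, and so did all 9 markers of M1 activation. The summed FPKM of the M1 markers was 27.7 to 309 in M0, 2025 to 2103 in M1 and 966 to 1552 in M1+PBM. M0 replicate 3 stood apart. Its M1 marker sum was 309, against 27.7 and 29.6 in the other M0 libraries, and its sum of 6 stromal markers was 181, against 5.28 and 6.49. M1 replicate 2 had a sum of 5 liver markers of 17.7, against at most 3.61 in any other library, with Alb at 9.01 FPKM there and listed at 0 in the other 8. In these bulk samples, fewer cells of a type and less RNA per cell cannot be told apart.

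The promoters of both receptors and of Rbpj are shown because the results below turn on the receptors and because RBPJ is the pathway's own DNA-binding factor. Each line gives the 250 bases before the RefSeq start of the gene on GRCm38.p6, 5′ to 3′ along the gene. All 9 genes were found in the RefSeq promoter table, with 11 windows in all. Capitals mark a match to any of 2 motifs searched on both strands, namely the RBPJ core TGGGAA and the NF-κB site. The Notch1 window is chr2:26503823-26504072 on the minus strand, the Notch2 window chr3:98013288-98013537 on the plus strand, and the first of 2 Rbpj windows chr5:53590096-53590345 on the plus strand.
Notch1: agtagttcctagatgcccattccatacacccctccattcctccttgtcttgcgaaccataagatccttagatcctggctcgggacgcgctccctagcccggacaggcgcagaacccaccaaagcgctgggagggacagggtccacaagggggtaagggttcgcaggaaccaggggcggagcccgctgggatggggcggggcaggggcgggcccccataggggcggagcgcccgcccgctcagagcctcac
Notch2: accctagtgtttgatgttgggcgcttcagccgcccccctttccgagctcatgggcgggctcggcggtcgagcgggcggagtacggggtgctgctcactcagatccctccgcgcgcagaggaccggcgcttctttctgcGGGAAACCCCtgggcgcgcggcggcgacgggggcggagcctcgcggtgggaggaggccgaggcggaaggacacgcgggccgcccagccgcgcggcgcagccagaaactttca
Rbpj: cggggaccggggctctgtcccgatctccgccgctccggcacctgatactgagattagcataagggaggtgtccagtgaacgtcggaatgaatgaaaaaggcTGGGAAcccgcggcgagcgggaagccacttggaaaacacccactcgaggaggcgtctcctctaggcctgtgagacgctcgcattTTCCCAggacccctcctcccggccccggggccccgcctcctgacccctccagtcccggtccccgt

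No window of Notch1, Jag1, Adam10, Adam17, Ncstn or Aph1a held either motif. The Notch2 window held 1 match to the NF-κB site, a motif present in 7.25% of 32851 promoter windows of this length. The Rbpj window printed above held 2 matches to the RBPJ core. The second Rbpj window, chr5:53590236-53590485, overlaps it, and its 1 match is the latter of these 2 counted again. Of the 2 Psenen windows, 1 held 1 match, while 21.6% of all windows held at least 1. A match is only a match of letters, and its absence concerns these 250 bases alone.

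Notch1 stood low in M0, high in M1 and between them in M1+PBM. Its FPKM was 9.85, 8.14 and 8.60 in M0 replicates 1 to 3, 39.6, 35.5 and 37.4 in M1, and 25.3, 22.9 and 23.9 in M1+PBM. The 3 groups did not overlap. The means were 8.86 ± 0.888, 37.5 ± 2.06 and 24.0 ± 1.21 FPKM (SD, n = 3). M1+PBM was thus at 0.641 of the M1 level and still above M0. The fragments behind the values were estimated from the rough depth given above and, as an upper limit, the longest transcript in the annotation. They came to up to 2650 to 14900 for Notch1 and 307 to 468 for Psenen, the shallowest of the 9 genes.

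The comparison of M1+PBM with M1 asked which genes of the activated macrophage the light altered, and Notch1 was the only 1 of the 9 genes that differed at an unadjusted p of at most 0.05. Its log2 fold change was -0.62 on the log2(FPKM + 1) scale (SE 0.095, 95% confidence interval -0.85 to -0.39), with an unadjusted p of 0.000438 by limma that was the 5th smallest of 12238 genes tested. After Benjamini-Hochberg adjustment over all genes it did not pass, with an adjusted p of 0.81 by limma and 0.53 in the replicate-blocked fit. Taken by replicate number, M1+PBM was lower than M1 by nearly the same amount each time, with log2 differences of -0.63, -0.61 and -0.62. An exact permutation test of 3 against 3 libraries gave p = 0.1, the lowest this design allows. The size stayed under the 2-fold change that the study required. Notch1 was named by the study from these same libraries, so the value is not independent evidence of its direction. Separately, the study reported by RT-PCR that PBM reversed the rise of Notch1 on polarization. By western blot it reported less cleaved Notch1 protein with PBM at later times. Those measures were not examined here. The M1 marker sum was also lower in every M1+PBM library than in every M1 library, with Il1b its largest part in M1. Singly, Nos2, Il1b, Il6 and Cd86 were lower without overlap, while Tnf, Cxcl9, Cxcl10, Cd40 and Irf1 overlapped. The part of these markers in the Notch1 difference was not tested.

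By FPKM, Notch2 was the more abundant receptor in every library. The study's RT-PCR gave another order, with Notch1 highest among the Notch pathway genes it measured in BMDMs. The measures differ, and the cause of the disagreement was not tested. Its FPKM was 45.0, 40.9 and 36.7 in M0, 53.7, 56.3 and 69.4 in M1, and 41.3, 58.1 and 44.0 in M1+PBM. M1 lay above M0 without overlap, whereas M1+PBM overlapped with both other groups. The log2 fold change of M1+PBM against M1 was -0.32 (SE 0.17, 95% confidence interval -0.73 to 0.081), with an adjusted p of 0.90 by limma, and M1+PBM replicate 2 was the highest of its group. Without M1+PBM replicate 2 the log2 fold change was -0.47 with an unadjusted p of 0.023 by limma.

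The balance between the receptors differed between M0 and the activated groups. Notch1 made up 16.6% to 19.0% of the summed FPKM of Notch1 and Notch2 in M0, 35.0% to 42.5% in M1 and 28.3% to 38.0% in M1+PBM. The ratio of Notch1 to Notch2 was 0.219, 0.199 and 0.234 in M0, 0.738, 0.632 and 0.538 in M1, and 0.614, 0.394 and 0.543 in M1+PBM. All M1 and M1+PBM ratios were above all M0 ratios, but the activated groups overlapped with each other. The log2 ratio differed by -0.31 between M1+PBM and M1 (exact permutation p = 0.3 over 3 against 3 libraries, two-sided), so a change of Notch1 beyond that of Notch2 was not shown with 3 libraries a group. Without M1+PBM replicate 2 the difference was -0.13, and without M1 replicate 1 it was -0.20.

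The remaining receptors were nearly silent. Notch3 stayed at or below 0.088 FPKM in 8 libraries and reached 1.18 in M0 replicate 3, the library with the stromal markers, and Notch4 did not exceed 0.521 FPKM. Neither passed the minimum FPKM for the test.

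**Figure D1:**
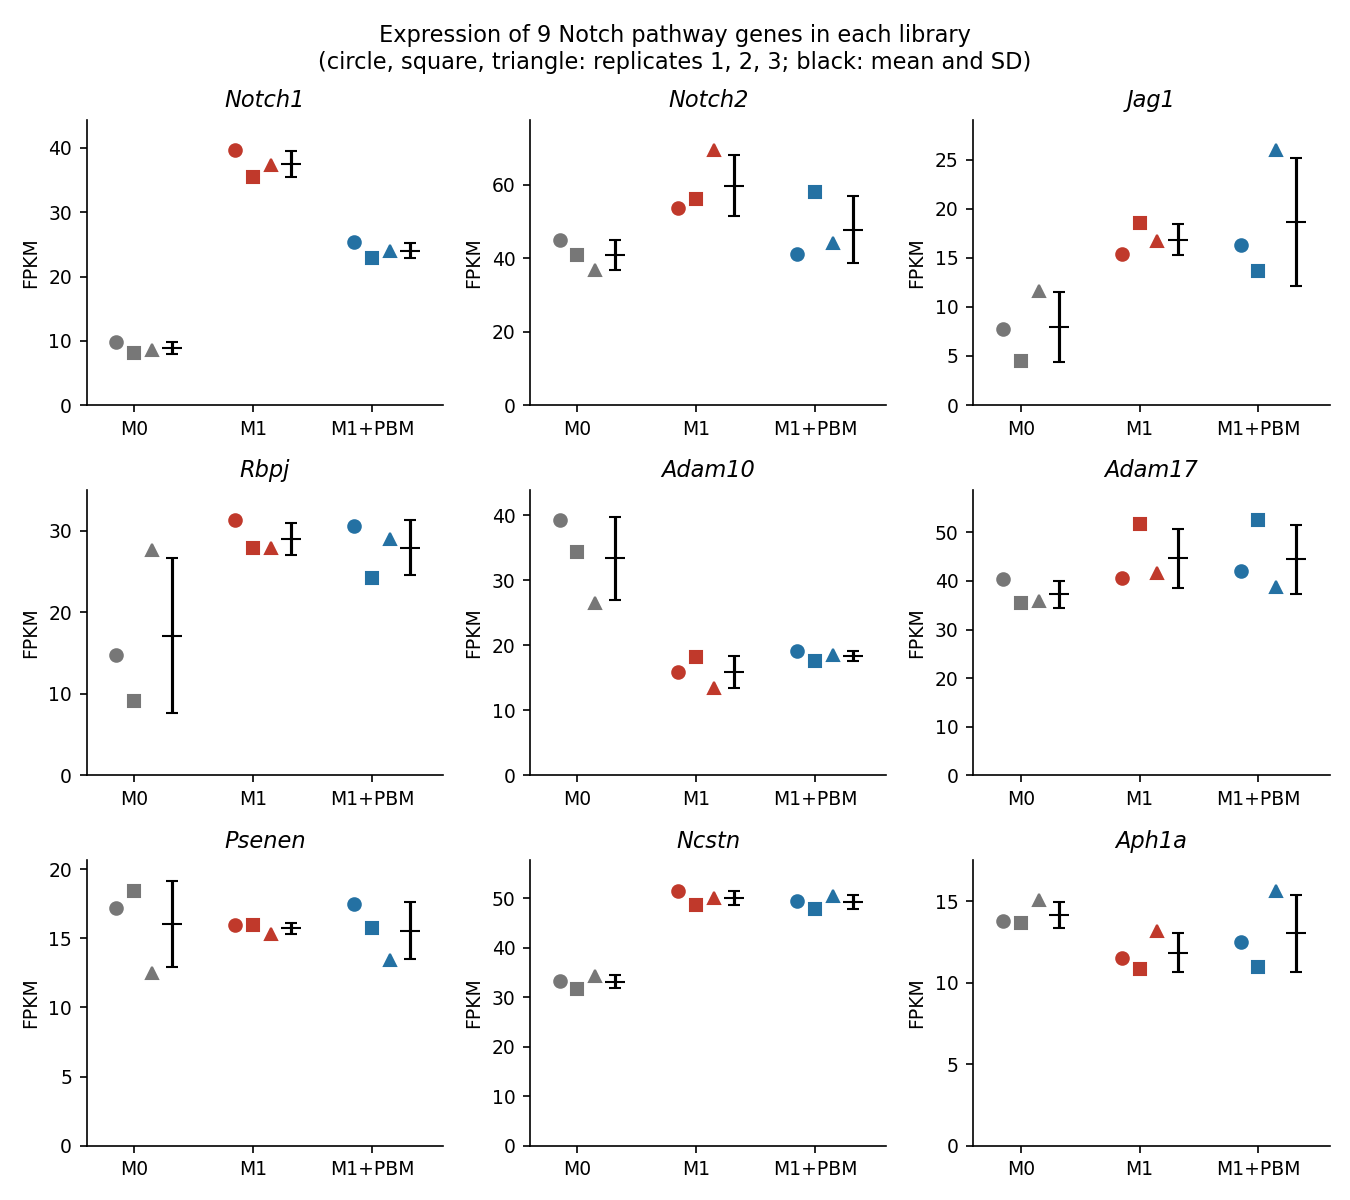
FPKM (vertical axis, linear, from 0) of each of the 9 genes in the M0, M1 and M1+PBM libraries, with the mean and SD of 3 libraries in black. Notch1 is the panel in which all 3 groups separate, at 8.14 to 9.85, 35.5 to 39.6 and 22.9 to 25.3 FPKM.

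Jag1, a Jagged-family ligand, was the only Notch ligand above 1 FPKM. Its FPKM was 7.78, 4.50 and 11.6 in M0, 15.3, 18.6 and 16.7 in M1, and 16.3, 13.6 and 26.0 in M1+PBM. Every activated library, with or without PBM, was above every M0 library. M1+PBM and M1 overlapped, with a log2 fold change of 0.089 (SE 0.23, 95% confidence interval -0.46 to 0.64) and an adjusted p of 0.96 by limma. That interval is wide, and without M1+PBM replicate 3, the highest library, the log2 fold change was -0.17. The stromal marker sum was 20.9, 3.32 and 25.9 in M1+PBM, the same order of replicates as Jag1. In M0 the orders were also the same, but in M1, at 11.5, 8.44 and 12.2, the order differed. A part of stromal cells in the Jag1 values was not tested. Jag2 and Dll1 did not exceed 0.556 and 0.346 FPKM in any library, Dll4 did not exceed 0.0492 FPKM, and Dll3 was listed at 0 in 8 of 9 libraries.

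Adam10, the metalloprotease best known for ligand-induced Notch cleavage, was lower in the activated groups, the opposite direction to both receptors. Its FPKM was 39.2, 34.4 and 26.5 in M0, 15.9, 18.3 and 13.4 in M1, and 19.1, 17.6 and 18.5 in M1+PBM. Both activated groups lay below M0 without overlap. Against M1, M1+PBM differed by a log2 fold change of 0.21 (SE 0.13, 95% confidence interval -0.097 to 0.51), with an adjusted p of 0.90 by limma. Without M1 replicate 2, the library with the liver transcripts, it was 0.31 with an unadjusted p of 0.046 by limma.

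Adam17, the protease that also releases TNF from the membrane, differed less between groups. Its FPKM was 40.5, 35.4 and 35.9 in M0, 40.5, 51.6 and 41.7 in M1, and 42.1, 52.4 and 38.8 in M1+PBM. M0 and M1 were separated by a narrow margin, between the highest M0 and the lowest M1 library, and M1+PBM overlapped with both. The log2 fold change of M1+PBM against M1 was -0.0096 (SE 0.16, 95% confidence interval -0.38 to 0.36), with an adjusted p of 0.99 by limma. The ratio of Adam17 to Adam10 was 1.03 to 1.35 in M0, 2.54 to 3.10 in M1 and 2.10 to 2.98 in M1+PBM. Adam17 was thus above Adam10 in every library, and the ratio was higher in all 6 activated libraries than in any M0 library.

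Among the γ-secretase subunits, Ncstn was the highest of the members. Nicastrin is the subunit that recognises the trimmed receptor. Its FPKM was 33.2, 31.7 and 34.3 in M0, 51.5, 48.6 and 49.99 in M1, and 49.4, 47.7 and 50.5 in M1+PBM. Ncstn was at a higher level in all 6 activated libraries than in M0, 1.51-fold by the means of M1 and M0, and varied little within a group. M1+PBM against M1 gave a log2 fold change of -0.024 (SE 0.087, 95% confidence interval -0.23 to 0.19), with an adjusted p of 0.97 by limma.

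Psenen, which encodes the small subunit that completes the complex, was nearly level. Its FPKM was 17.2, 18.4 and 12.5 in M0, 15.9, 15.9 and 15.3 in M1, and 17.5, 15.7 and 13.4 in M1+PBM, so that all 3 groups overlapped. Aph1a, a scaffold subunit, was at 13.8, 13.6 and 15.1 FPKM in M0, 11.5, 10.9 and 13.2 in M1, and 12.5, 10.99 and 15.6 in M1+PBM. M1 was below M0 for Aph1a, and M1+PBM overlapped with both. The log2 fold changes of M1+PBM against M1 were -0.022 for Psenen (95% confidence interval -0.30 to 0.26) and 0.12 for Aph1a (95% confidence interval -0.24 to 0.47), with adjusted p of 0.98 and 0.91 by limma.

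Of the other subunits of γ-secretase, Psen2, a presenilin, had means of 22.7 FPKM in M0, 21.8 in M1 and 26.8 in M1+PBM. Its log2 fold change of M1+PBM against M1 was 0.28, with an unadjusted p of 0.11 by limma and 0.035 in the replicate-blocked fit. Aph1c had means of 12.9, 2.20 and 2.26 FPKM and Aph1b of 2.28, 1.32 and 1.46 FPKM, but these are close paralogs whose reads may have been split between them.

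Rbpj, the DNA-binding partner of the receptor's intracellular domain, was variable in M0 and steady after activation. Its FPKM was 14.7, 9.11 and 27.6 in M0, 31.3, 27.9 and 27.9 in M1, and 30.6, 24.2 and 29.0 in M1+PBM. The high M0 value was that of replicate 3, which reached almost the level of M1. M1+PBM against M1 gave a log2 fold change of -0.057 (SE 0.12, 95% confidence interval -0.35 to 0.23), with an adjusted p of 0.95 by limma. The row of the pseudogene Rbpj-ps3 stood at 0.56 to 0.635 of Rbpj in all 9 libraries, so reads may be shared between them and the absolute level of Rbpj is uncertain.

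Relative to Notch1, both Rbpj and Jag1 were higher with PBM. The ratio of Rbpj to Notch1 was 0.746 to 0.788 in M1 and 1.06 to 1.21 in M1+PBM, and that of Jag1 to Notch1 was 0.387 to 0.522 in M1 and 0.594 to 1.09 in M1+PBM. Neither ratio overlapped between these groups (exact permutation p = 0.1 each). Both ratios have Notch1 as denominator and are not independent of its difference. Of 6 ratios compared between M1+PBM and M1, 2 had this smallest possible p, with an adjusted p of 0.3 over the 6 exact permutation tests. All ratios other than that of Notch1 to Notch2 were added after the values were known.

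**Figure D2:**
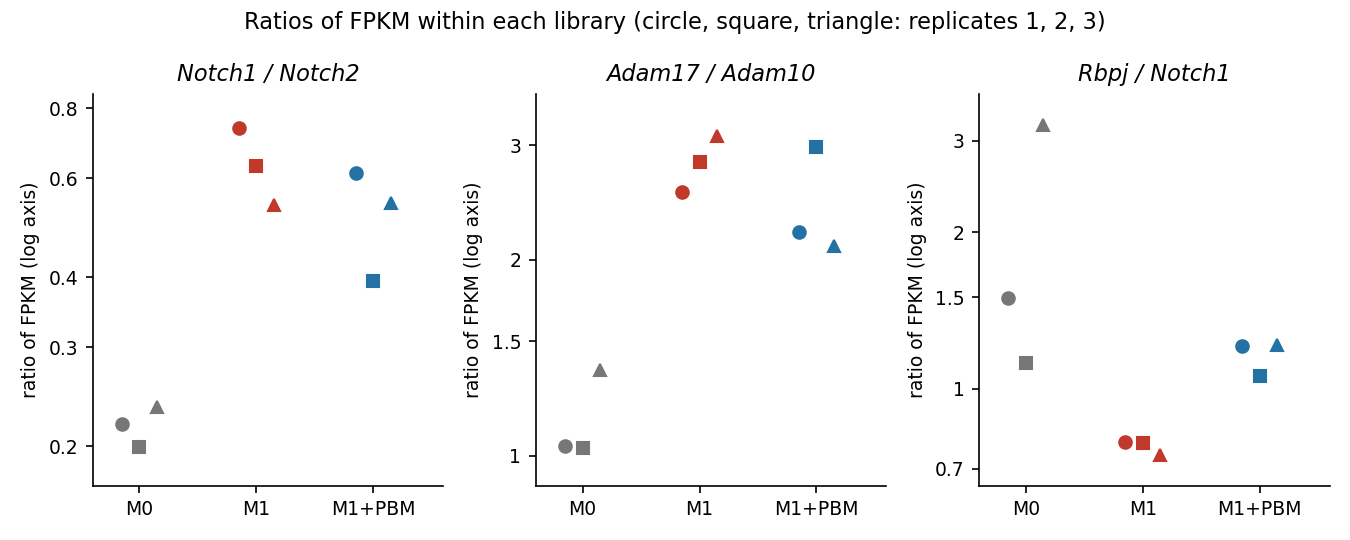
Ratio of the FPKM of the named genes in each library (vertical log axis) for M0, M1 and M1+PBM. The ratio of Notch1 to Notch2 overlaps between M1 and M1+PBM, whereas that of Rbpj to Notch1 is higher in all 3 M1+PBM libraries than in all 3 M1 libraries.

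The Mastermind coactivators and the classical targets were also read. Maml1 had means of 7.95, 6.52 and 6.57 FPKM in M0, M1 and M1+PBM, Maml2 of 3.69, 1.79 and 1.93 FPKM, and Maml3 of 1.53, 0.287 and 0.267 FPKM. None of the 6 targets Hes1, Hes5, Hey1, Hey2, Heyl and Nrarp reached 1 FPKM in any library. Hes1 was at most 0.128 FPKM apart from 0.617 in M0 replicate 3, Hey1 was at most 0.671 FPKM, and Hes5 and Hey2 were each listed at 0 in 8 of 9 libraries. No target passed the minimum FPKM. In the fit with no minimum FPKM, 5 of the 6 targets had a value above 0 between M1+PBM and M1, and 0 of them had an unadjusted p of at most 0.05 by limma, with log2 fold changes of 0.0020 to 0.047 and a lowest unadjusted p of 0.11. At these levels the log2(FPKM + 1) scale leaves little room for a difference, so a change of a target was not detectable rather than shown to be absent.

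Polarization was described without a test, because the M0 libraries were deposited in a table of their own, and whether both tables were normalized together is not given in the sources used here. These differences and those of M1+PBM against M1 share the M1 libraries. Over 13915 rows the median log2 difference of M1 minus M0 was -0.34, and 50.6% of rows were lower in M1 without overlap while 15.6% were higher. Of the 9 members, 6 were higher in M1 without overlap (Notch1, Notch2, Jag1, Rbpj, Adam17 and Ncstn), 2 were lower (Adam10 and Aph1a) and Psenen overlapped. The median over the members was 0.53.

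At least a 2-fold difference on the log2(FPKM + 1) scale was seen for Notch1 (log2 difference 1.97) and Jag1 (1.07), both higher, and for Adam10 (-1.02), lower. Over all rows, 8.21% were at least 2-fold higher and 14.0% at least 2-fold lower. Without M0 replicate 3 the members were Notch1 (1.95), Jag1 (1.36) and Rbpj (1.25) among the higher and Adam10 (-1.17) among the lower, beside 8.95% and 14.7% of all rows. Without M0 replicate 2 only Notch1 remained past 2-fold. When the 9 libraries were rescaled by the median of ratios, which set the median of all rows to 0.042, the differences were 2.43 for Notch1, 1.53 for Jag1, 1.33 for Rbpj, 1.07 for Ncstn and 1.03 for Notch2. On that scale Adam10 was lower by a log2 difference of -0.53 and no longer past 2-fold, Adam17 was at 0.74, and Psenen and Aph1a turned to 0.46 and 0.23. Rescaling divides each library by 1 factor and so shifts all members by nearly the same log2 amount. Their order, with Notch1 highest and Adam10 lowest, could therefore hardly change, and its being the same on both scales is no support for it.

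Of 66 genes listed for the Notch pathway, 45 were above the minimum level over the 9 libraries. Of these, 5 were at least 2-fold higher in M1, namely Notch1, Jag1, Rhbdf2, Dtx2 and Dtx3l, the last 3 named after their values were seen. A further 7 were at least 2-fold lower. The median log2 difference was -0.30, near the -0.34 of all rows, but it pools 0.53 over the 9 members with -0.58 over the 36 others.

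**Figure D3:**
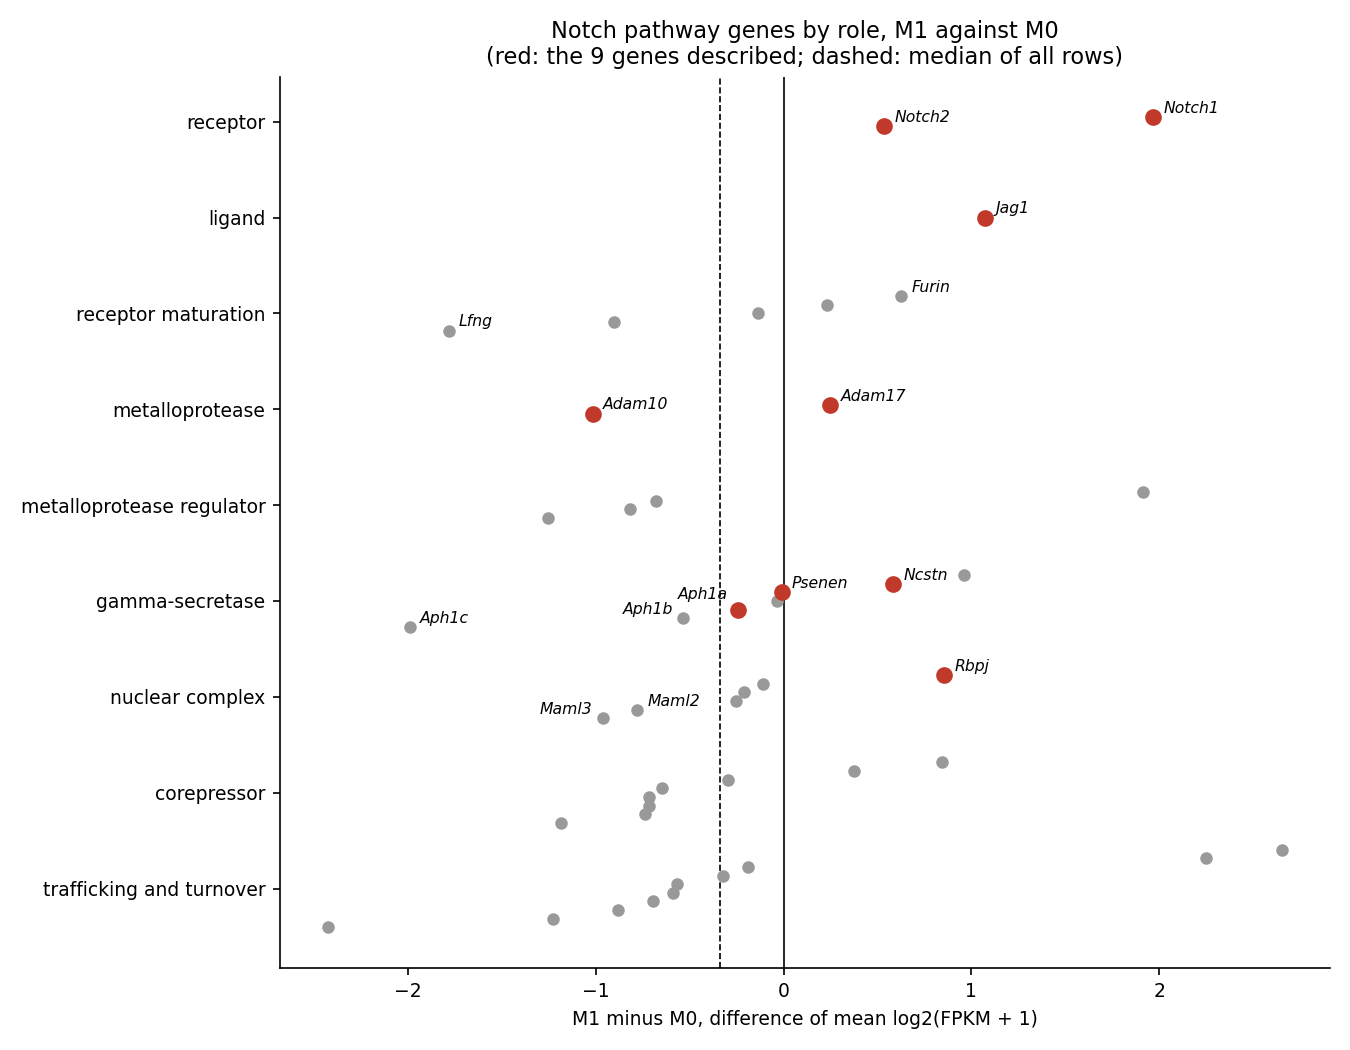
Difference of the mean log2(FPKM + 1), M1 minus M0 (horizontal axis), for the 45 measured Notch pathway genes, grouped by role. Each point is a gene, red points are the 9 members and the dashed line is the median of all rows at -0.34. Notch1 lies at 1.97, Jag1 at 1.07 and Adam10 at -1.02.

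Between M1+PBM and M1, 42 of the 66 listed genes were tested. At an unadjusted p of at most 0.05, 2 were lower, Notch1 and Furin, and 1 was higher, Lfng. Of all 12238 genes, 1.45% were lower and 2.99% higher by this rule, 543 genes in all, against 988 in the replicate-blocked fit, where the listed genes were Notch1, Lfng and Psen2. Of the 9 members, 1 was lower and 0 were higher. By limma none of the members passed the study's thresholds of p at most 0.05 with a log2 fold change of at least 1 in size. Of all genes, 0.261% did. The study reported many more genes past these cut-offs and names no test for single genes, so the limma share is not its count. No member had an adjusted p under 0.05 by limma, which 0.00817% of all genes did. The median log2 fold change was -0.022 over the members, 0.077 over the listed genes and 0.058 over all genes.

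Furin, the protease that cuts the Notch precursor on its way to the surface, was at 28.9, 21.9 and 28.6 FPKM in M1 and 17.1, 22.3 and 19.4 in M1+PBM. The groups overlapped through replicate 2 of each. Its log2 fold change was -0.41 (SE 0.15), with an unadjusted p of 0.034 and an adjusted p of 0.90 by limma, and the unadjusted p was 0.056 in the replicate-blocked fit. Lfng, a Fringe enzyme that adds sugars to Notch and alters which ligands it answers, was at 4.19, 7.30 and 6.21 FPKM in M1 and 8.96, 8.95 and 19.8 in M1+PBM. All M1+PBM libraries were above all M1 libraries and below or within the 19.6 to 26.9 FPKM of M0. Its log2 fold change was 0.91 (SE 0.33), with an unadjusted p of 0.030 and an adjusted p of 0.90 by limma. Neither gene kept an unadjusted p of at most 0.05 when M1 replicate 1 or M1 replicate 3 was left out, and Furin also lost it when M1+PBM replicate 1 or M1+PBM replicate 3 was.

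Without overlap between M1+PBM and M1, 2 listed genes were lower (Notch1 and Rhbdf2) and 5 were higher (Lfng, Tspan17, Ctbp1 and Ctbp2 among them), beside 2.52% and 8.51% of all genes. Rhbdf2, Tspan17, Ctbp1 and Ctbp2 were named after their values were seen. Single libraries moved the count of listed genes with an unadjusted p of at most 0.05. It was 3 with all libraries, 8 when M1+PBM replicate 2 was left out, 6 when M1 replicate 2 was, and 1 when either M1 replicate 1 or M1 replicate 3 was. The share of all genes called by the same rule was 4.44% with all libraries and 7.72%, 9.11%, 2.6% and 4.29% in these settings, so it also rose where M1+PBM replicate 2 or M1 replicate 2 was left out. With no minimum FPKM the count was 4, Ctbp1 being added, and none of the 23 listed genes that only this fit held was called. The count of members was 2 without M1+PBM replicate 2, where Notch2 joined Notch1, and 2 without M1 replicate 2, where Adam10 did. Notch1 was among those called in each of the 6 cases, with a log2 fold change between -0.66 and -0.58.

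**Figure D4:**
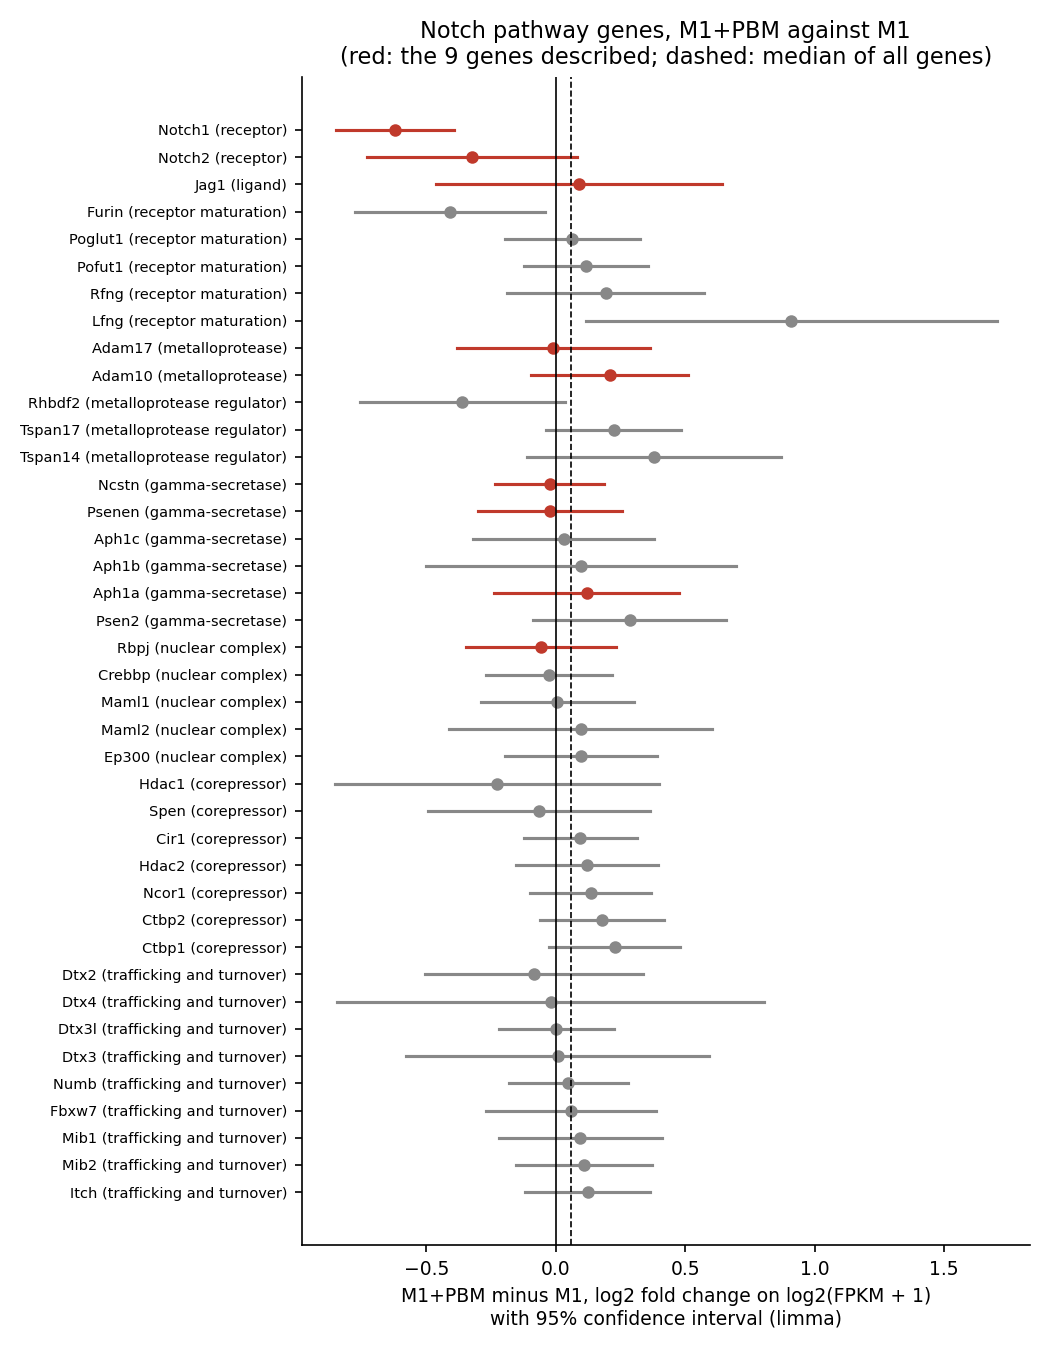
Log2 fold change of M1+PBM against M1 on the log2(FPKM + 1) scale (horizontal axis) with its 95% confidence interval from limma for 40 of the 42 tested Notch pathway genes, ordered by role. The 9 members are red and the dashed line is the median of all genes at 0.058. The intervals of Notch1, Furin and Lfng lie clear of 0.

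In the order of levels per length, Notch2 was the highest member in M0 (40.9 ± 4.17 FPKM, SD, n = 3) and overlapped with Adam17 (37.2 ± 2.82) next to it, while Notch1 (8.86) and Jag1 (7.97) were the lowest and overlapped with each other. In M1 the order ran Notch2, Ncstn, Adam17, Notch1, Rbpj, Jag1, Adam10, Psenen and Aph1a. Notch1 was 4th there, separated from Adam17 above it and Rbpj below it. In M1+PBM Notch1 was 5th, overlapping with Rbpj above it and Jag1 below it. At the top, Ncstn (49.2 ± 1.39) and Notch2 (47.8 ± 9.03) overlapped, as did Notch2 and Adam17 (44.4 ± 7.13).

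Rows with the most similar pattern over the 9 libraries were sought among 13915. For Notch1 they were Ndufs4 (Pearson r of 0.991), Zfp558 (0.990) and Gm18801 (0.987), for Jag1 Il21r (0.971), Micall2 (0.970) and Nploc4 (0.965), and for Rbpj its pseudogene Rbpj-ps3 (0.995), 1110002J07Rik (0.990) and Lrrc59 (0.977). Ndufs4, a subunit of respiratory complex I, was at 5.12 to 5.52 FPKM in M0, 7.40 to 7.88 in M1 and 6.59 to 6.96 in M1+PBM, the same order of groups as Notch1 in a narrower range. Il21r, a cytokine receptor, was at 13.2, 7.21 and 21.1 FPKM in M1+PBM, lowest in replicate 2 and highest in replicate 3 as Jag1 was. These points fall into few groups and share their libraries, so the correlations are descriptions.

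Exons of several members overlap annotated neighbours. The opposite-strand neighbours of Notch1, 0610009E02Rik and Gm13568, were at most 0.544 FPKM, against 8.14 or more for Notch1. Ncstn overlaps Copa over 195 bases on the opposite strand, at 30.1 to 36.7 FPKM, and Adam17 overlaps Iah1 over 311 bases, at 6.57 to 11.7 FPKM. The libraries were made with a strand-specific kit, but whether the counting used strand is not given in the sources used here.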

How the data were processed

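RNA-seq libraries of M0, M1 and M1+PBM macrophages (3 each) were used, grouped by their labels. The authors deposited FPKM values, computed with Cufflinks methods according to the study, in 2 tables, 1 for M0 and 1 for the other 6 libraries. The submitters' processing notes name Bowtie 0.12.2 and mm9, while the rows carry Ensembl identifiers and 320 carry assembler names. Symbols came from GENCODE. FPKM times transcript length fell within 0.05 of a whole step in 22.9% to 24.9% of low values (10% if even), so no reads were recovered.

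Libraries with and without PBM were compared by limma 3.58.1 in R 4.3.3 (lmFit, eBayes with trend, two-sided, Benjamini-Hochberg adjustment) on log2(FPKM + 1) of the 12238 rows with at least 1 FPKM in 3 or more of 6 libraries. The scale understates changes of low genes. Scripts were tested on simulated data. Single ratios were compared by an exact permutation test. M0 entered no test, and its rows needed 1 FPKM in 3 of 9 libraries.

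The text names all 9 members, every listed receptor, ligand, γ-secretase subunit, target and Mastermind gene, any other listed gene with an unadjusted p of at most 0.05, and the 3 rows most correlated with Notch1, Jag1 and Rbpj. Members and lists were chosen with earlier results of these data known. Same-numbered M1 and M1+PBM libraries deviated together from their group means (r of 0.157, 0.469 and 0.462, against -0.491 to 0.0328 between numbers). Deviations from a mean of 3 libraries tie these r to each other, so their contrast is not separate support for pairs. The labels state no pairing. The numbers were nevertheless taken as pairs for a fit with a replicate block, a choice read from these same data. A few listed items are not reported here. The alternatives are given in the closing section.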

Additional observations from a re-analysis of the deposited data

How the results depend on the processing

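For Notch1 in M1+PBM against M1, direction and an unadjusted p of at most 0.05 held under each alternative (pseudocount of 0.1, quantile normalization, median-of-ratios scaling, no minimum FPKM or a mean of 5, eBayes with no trend, replicate block, each library left out). With the replicate block the counts were 1 member and 3 listed genes, 45 of all genes passed the study's thresholds against 32 without it, and the log2 ratio of Notch1 to Notch2 differed by -0.31. Beside Furin and Psen2 it changed no other call among the listed genes, and 988 genes had an unadjusted p of at most 0.05, against 543. With a pseudocount of 0.1, 75 genes passed the study's thresholds.

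Leaving out 1 library at a time gave 1 to 2 members, 1 to 8 listed genes and 27 to 89 genes past the study's thresholds, the most without M1+PBM replicate 2. The log2 fold change then ranged from -0.13 to 0.098 for Adam17, -0.12 to 0.040 for Rbpj, -0.17 to 0.28 for Jag1, -0.11 to 0.074 for Psenen and -0.011 to 0.23 for Aph1a, so their signs are not fixed. The log2 ratio of Notch1 to Notch2 ranged from -0.45 to -0.13.

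For M1 against M0, 1 to 4 members were past 2-fold with 1 library left out, and Psenen ranged from -0.17 to 0.093. Among these leave-outs the share of all rows past 2-fold was computed only without M0 replicate 3. Median-of-ratios scaling, an alternative for these counts chosen after seeing the data, gave 5 members and moved Psenen to 0.46 and Aph1a to 0.23. It also moved the median of all rows from -0.34 to 0.042. The share of all rows past 2-fold was not computed on that scale, so the 5 is not a result about the members. The cause of these shifts was not tested. With 3 libraries a group no exact test could pass 0.05.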

Other observations

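Among the other listed genes, all named here after their values were seen, members of the Deltex family of ubiquitin ligases differed between M1 and M0 in both directions. Dtx3l was at 10.96, 9.43 and 21.8 FPKM in M0 and 83.8, 89.5 and 91.4 in M1, and Dtx2 was at 2.24, 2.42 and 2.20 in M0 and 13.6, 12.0 and 18.9 in M1. M1+PBM differed from M1 by log2 fold changes of 0.0011 (95% confidence interval -0.22 to 0.22) and -0.084 (95% confidence interval -0.50 to 0.34), respectively, by limma. Dtx3 was lower in M1 without overlap, at 13.2, 7.78 and 10.6 FPKM in M0 and 4.45, 3.32 and 3.79 in M1, Dtx4 overlapped with means of 27.5 and 18.3 FPKM, and Dtx1 was at most 0.103 FPKM. Rhbdf2, which encodes iRhom2, the partner that brings ADAM17 to the surface, was at 14.2, 12.4 and 18.4 FPKM in M0, 56.5, 48.5 and 73.1 in M1 and 45.9, 48.4 and 41.9 in M1+PBM. In the opposite direction, Neurl1b, a ubiquitin ligase for Notch ligands, was at 7.98, 2.44 and 7.64 FPKM in M0 and at most 0.288 in M1. Tspan14, a tetraspanin partner of ADAM10, was at 36.7 to 47.0 FPKM in M0 and 16.1 to 17.3 in M1, the same direction as Adam10 itself. That direction is common, since 50.6% of all rows were lower in M1 without overlap. None of these differences between M1 and M0 was tested.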
